A study of Mus musculus with 4 samples.

Results

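The array used for these mouse livers carries 4449 probes that are named not by a gene but by a stretch of the genome and a strand, and that stand for candidate long noncoding RNA loci. A name such as chr9:78107225-78118850_F gives the chromosome, start and end on build mm9, and F or R for the forward or the reverse strand. Of these probes, 3838 cleared the background on 1 array or more and are the members described here, out of 56605 probes in all. The mark of the scanner software that chose them, a spot clearly brighter than its background, is the measure they were selected on, so detection is given as a description.

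Liver RNA came from C57BL/6 wild-type mice that were 6 weeks old and were injected intraperitoneally on 5 days per week for 3 weeks. Females received 5 mg/kg/day of aristolochic acid I (AAI), a nephrotoxic and carcinogenic compound of Aristolochia plants, males received 2 mg/kg/day, and 1 group of each sex received the vehicle, corn oil. RNA of 5 mice was mixed into 1 pool per group and hybridized to 1 single-colour array, so the 4 groups have no replicates, no test was possible, and dose cannot be told apart from sex where AAI-treated females are set beside AAI-treated males. In whole liver, fewer cells of a type and less RNA per cell cannot be told apart.

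Long noncoding RNAs are transcripts that are not translated. Some act on chromatin or on neighbouring genes, as Xist does in silencing an X chromosome, others are hosts of small RNAs or have no known role, and many are weakly expressed and restricted to few tissues. In liver, imprinted noncoding RNAs such as H19 and Meg3 are high in the fetus and low in the adult.

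The loci covered 3229 coordinate ranges, or 4061 when strands are counted separately, with 832 ranges probed on both strands and 316 stranded ranges that had several probes. They lay on 20 chromosomes, from 95 probes on chromosome 19 to 343 on chromosome 1, with 174 on the X and 0 on the Y. The ranges had a median length of 7207 bases and ran from 62 to 538251 bases. All 4358 probes with a mapped position lay inside the range of their name and on the named strand, and 91 had no mapped position. Each probe is 60 bases long, so a long range was seen through a single short window.

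The sequences that the results below turn on are printed 5′ to 3′ as the array files give them, for the strand named. The first pair lies at the Gsta genes, for glutathione S-transferases of the alpha class, and capitals mark the letters that each shares with the array probe of Gm8074, a predicted gene of the same cluster that the array lists by its transcript. The 60-base probes of the pair are directly adjacent, at 78116774 to 78116833 and at 78116834 to 78116893, and only the shared bases 4 to 26 of the second are shown.
chr9:78104935-78116974_F: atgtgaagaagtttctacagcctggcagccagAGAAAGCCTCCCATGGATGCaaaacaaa
chr9:78107225-78118850_F: AAGAAGCAAGGAAGGCTTTCAAG

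The next set holds the loci with the largest or most repeated differences between AAI and corn oil. The probe on chromosome 1 had opposite ratios in the sexes, the pair on chromosome 17 was higher in both sexes, the probes on chromosomes 8 and 14 were lower in both, and the probe on chromosome 7 had the largest increase in males.
chr1:193875525-193978800_R: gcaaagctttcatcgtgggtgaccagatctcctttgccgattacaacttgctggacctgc
chr17:15100982-15115630_R: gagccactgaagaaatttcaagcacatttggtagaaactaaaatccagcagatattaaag
chr17:15100982-15115630_R: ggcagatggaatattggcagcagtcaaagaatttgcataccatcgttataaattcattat
chr8:49866197-49866841_R: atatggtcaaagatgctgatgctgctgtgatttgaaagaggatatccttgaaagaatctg
chr14:22267795-22319045_F: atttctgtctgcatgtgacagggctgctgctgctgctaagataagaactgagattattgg
chr7:6108350-6119600_R: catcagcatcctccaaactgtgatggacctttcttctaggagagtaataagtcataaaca

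The following 3 pairs are shown because their probes read the same bases on opposite strands, over 34, 58 and 58 bases, which capitals mark. In each pair the capitals of one line are the reverse complement of those of the other.
chr5:35975265-35982561_F: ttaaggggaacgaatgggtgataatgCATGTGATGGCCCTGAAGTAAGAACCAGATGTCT
chr5:35975265-35982561_R: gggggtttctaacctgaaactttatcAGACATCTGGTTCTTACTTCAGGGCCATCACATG
chr7:13533925-13544525_F: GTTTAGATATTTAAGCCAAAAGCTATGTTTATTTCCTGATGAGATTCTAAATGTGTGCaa
chr7:13533925-13544525_R: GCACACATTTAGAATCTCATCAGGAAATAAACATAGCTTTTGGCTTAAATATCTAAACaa
chrX:132429992-132486347_F: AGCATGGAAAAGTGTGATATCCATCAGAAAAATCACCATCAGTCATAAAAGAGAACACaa
chrX:132429992-132486347_R: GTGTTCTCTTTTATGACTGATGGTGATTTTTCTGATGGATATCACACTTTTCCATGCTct

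A last set shows what else a locus probe can read. The first pair are 2 loci on the same strand whose probes share 28 bases, in capitals. The others contain a stretch of a miRNA hairpin of RefSeq, in capitals, of Mirlet7c-2 with 49 bases and of Mir8110 with 58 bases, where such a probe can report the primary transcript but not the mature miRNA.
chr12:76744947-76778372_R: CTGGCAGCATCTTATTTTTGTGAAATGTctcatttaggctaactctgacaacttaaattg
chr12:76769763-76770169_R: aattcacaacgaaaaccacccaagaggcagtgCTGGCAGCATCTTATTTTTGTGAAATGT
chr15:85412264-85549139_F: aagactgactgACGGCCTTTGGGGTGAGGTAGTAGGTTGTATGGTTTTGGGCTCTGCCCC
chr8:91471819-91551119_F: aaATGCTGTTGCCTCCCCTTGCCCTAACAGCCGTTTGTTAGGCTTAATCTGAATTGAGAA

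The labels and the tissue were checked on the same values. A probe named XIST, for the RNA made from the inactive X, had log2 signals of 10.60 and 10.42 in the female pools and 4.88 and 4.90 in the male pools. A second Xist probe differed little, with 7.85 and 7.58 against 6.96 and 7.47. Of the Y-linked genes, Eif2s3y had 2.11 and 2.10 against 11.52 and 11.66, and Ddx3y 2.11 and 2.06 against 9.03 and 9.14. Uty had 5.64 and 5.60 against 7.20 and 7.16, while Kdm5d differed little, with 7.66 and 8.01 against 7.82 and 8.24. In the tissue check, 7 of 7 hepatocyte markers with a probe were above background on all arrays, with a log2 summed signal of 20.82 to 21.06. Markers of other tissues moved with the treatment. Of 10 skeletal muscle genes, 10 were higher after AAI in both sexes, with log2 summed signals of 15.37 against 10.05 in females and 18.34 against 12.26 in males, where Acta1, skeletal muscle actin, had 12.73 against 4.65 in females and 15.60 against 8.80 in males. The brown fat sum was 12.75 against 11.60 in females, where 1 of 3 compared genes, Cox8b, was at least 2-fold higher. Of the fat genes 3 of 5 were higher in females, with a sum of 12.25 against 11.90. In males the brown fat sum was 16.09 against 11.18, with 4 of 4 genes higher, and the fat sum 16.20 against 12.81, with 4 of 5 higher. The adrenal cortex sum was 14.83 against 11.61, with 4 of 6 genes higher and 1 lower. For the adrenal medulla it was 14.12 against 11.86, with 3 of 5 genes higher. The red cell sum was lower, with 15.77 against 17.72 and 3 of 4 genes lower. Of the kidney and pancreas genes compared, 0 passed 2-fold in either sex, and none of these lists had a gene that was dim on all arrays. The part of these tissues in the locus ratios was not tested.

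Most of the loci were detected in liver, more of them than of the curated noncoding transcripts on the array and fewer than of the mRNAs. Of the 4449 probes, 3731 (83.9%) were well above background in the female AAI pool and 3505 (78.8%) in the female corn oil pool. In the male pools the counts were 3358 (75.5%) with AAI and 3478 (78.2%) with corn oil. Over all non-control probes the shares were 81.5%, 77.9%, 74.7% and 77.5% on the same arrays. Probes of RefSeq mRNA accessions reached 88.2%, 86.0%, 83.9% and 85.5%, and probes of RefSeq noncoding accessions 73.5%, 68.3%, 63.6% and 67.4%. The array of AAI-treated females had the highest share and that of AAI-treated males the lowest in each of these classes.

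**Figure D1:**
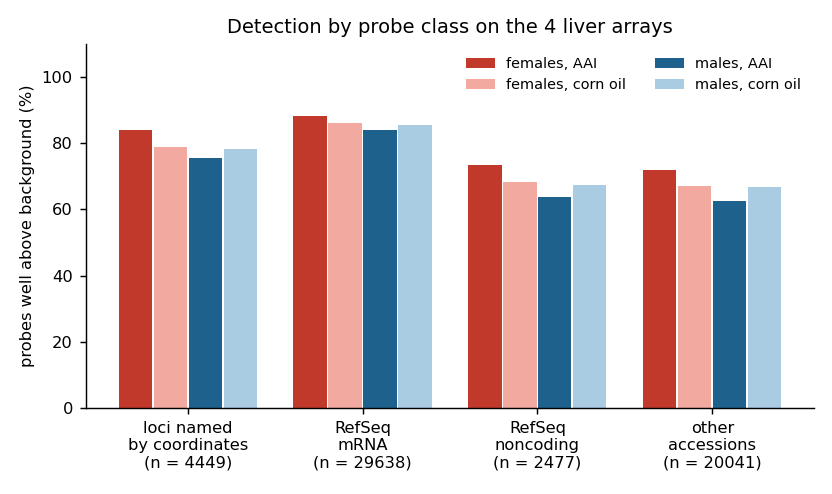
Share of probes well above background (y axis, percent) by class of probe (x axis, with the number of probes), 1 bar for each of the 4 arrays. The loci named by coordinates, at 75.5% to 83.9%, lie between RefSeq mRNA probes and RefSeq noncoding probes on every array.

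Detection was mostly all or nothing. The mark was set on 4 arrays for 3235 probes, on 1 to 3 arrays for 603 and on 0 arrays for 611. Of the 255 probes marked on a single array, 170 were marked in the female AAI pool, 45 in the male corn oil pool, 27 in the female corn oil pool and 13 in the male AAI pool. This order follows the overall detection of the arrays in its first and last places. On the normalized log2 scale, the dimmest marked locus of an array had 4.06 in the female AAI pool and 4.31 to 4.73 in the others, and the brightest unmarked locus had 4.06 there and 4.69 to 4.85 in the others, so the edge of the mark was lowest in the female AAI pool. The highest signal of a probe marked on 1 array was 4.60 at the median, with a range of 4.08 to 8.44, against 3.28 and a range of 2.11 to 4.75 for probes marked on 0 arrays.

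Probes with no mark had fewer G and C bases, at a median of 40.0% against 45.0% for those marked on 4 arrays. The share marked on 4 arrays was 65.9% among the shortest ranges and 72.4% to 75.3% in the 3 longer classes of equal size, and the strands were detected alike, with 86.6% of forward and 86.0% of reverse probes marked at least once. Signals depend on how well each probe binds, so levels were compared only as medians of classes. Among probes marked on all arrays, the loci had median log2 signals of 7.30 to 7.37 on the 4 arrays, against 8.42 to 8.46 for mRNA probes and 7.10 to 7.17 for RefSeq noncoding probes.

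The 10 probes with the highest mean signal stayed within 1.5-fold of corn oil apart from one. Their log2 ratios of AAI over corn oil ran from -0.58 to 1.33 in females and from -1.33 to 0.24 in males, and the 1.33 and the -1.33 belong to 1 locus of chromosome 1 described below. Of these 10 probes, 6 had over 60% G and C bases, against 3.2% of all members. The highest, chr14:78924115-78938125_F, had log2 signals of 17.59 (female AAI), 17.66 (female corn oil), 17.65 (male AAI) and 17.60 (male corn oil), the order in which signals are given from here on.

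Most loci differed little between AAI and corn oil in both sexes. A locus was compared in a sex when either of its arrays was well above background, and where the other array was dim the ratio is a bound. In females 3775 members were compared, of which 41 (1.09%) were at least 2-fold higher after AAI and 78 (2.07%) at least 2-fold lower, with 1.39% and 3.27% of all compared probes. In males 3571 were compared, of which 77 (2.16%) were higher and 164 (4.59%) lower, with 3.51% and 4.37% of all compared probes. With each array scaled to its 75th percentile instead, the counts in females were 62 higher and 53 lower, so the larger direction turned, and in males 99 and 160.

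In females the share of increases was near that of the whole array, also under the 75th percentile scaling, with 1.64% against 1.99%. In males it was below the whole array, with 2.77% against 4.14% under that scaling. Decreases were less frequent than over the whole array in females and close to it in males. The median log2 ratio of the measured members was 0.111 in females and 0.045 in males, against 0.024 and 0.023 over all probes, so the loci as a class lay slightly above the array in females. The middle 90% of log2 ratios ran from -0.67 to 0.66 in females and from -0.94 to 0.67 in males. Within 1.5-fold of corn oil lay 85.3% of the members in females and 82.4% in males.

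The share past 2-fold changed with signal. In males, 2.77% of members with a mean log2 signal under 6 were lower after AAI, 5.71% of those between 8 and 10, and 1.78% of those above 10. For mRNA probes the shares in the same classes of males were 3.65%, 2.92% and 1.91%, and for all probes 4.15%, 3.82% and 1.83%. Between 6 and 7, 5.02% of the members were lower, against 4.5% of mRNA probes and 5.76% of all probes. Between log2 signals of 7 and 10, at most 0.745% of the loci were higher in males. For mRNA probes this share was 3.09% to 3.78%, and for all probes 2.59% to 2.74%.

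**Figure D2:**
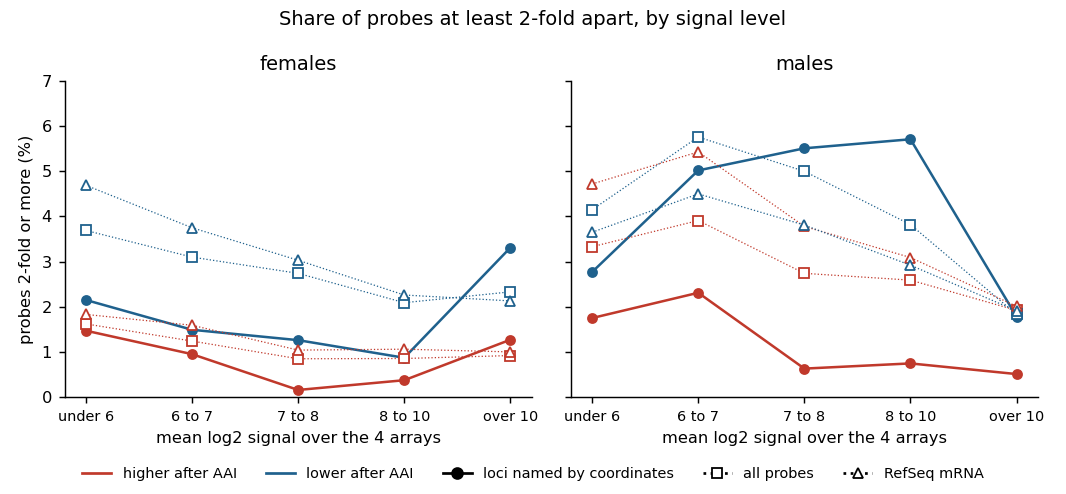
Share of probes at least 2-fold higher or lower after AAI (y axis, percent) by mean log2 signal over the 4 arrays (x axis), in females and males, for the loci, all probes and RefSeq mRNA probes. In males the loci lie below both other sets for increases at each level, and reach 5.71% for decreases at 8 to 10.

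Without replicate arrays, 2 internal measures of error were available. Among the members, 5 probes were printed as 10 spots, and the SD of log2 signal between the 8 to 10 usable spots of one array was 0.0281 to 0.135. These 5 probes were bright, with mean log2 signals of 14.05 to 16.39 before normalization, so this SD does not cover dim spots. Different probes of the same strand of a range had a median SD of their log2 ratios of 0.246 over 212 ranges in females and 0.237 over 194 in males. They lay more than 1 log2 unit apart in 18 and 35 ranges. The first SD is of signals and the second of ratios, so their sizes cannot be compared directly. Neither measure includes the variation between mice or between labelling reactions.

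The largest increase of all loci was in females at chr9:78107225-78118850_F, in the Gsta cluster whose letters are printed above. Its log2 signals were 15.78, 11.53, 13.50 and 13.12, an increase of 4.25 or 19.03-fold in females against 0.38 or 1.30-fold in males. The neighbouring chr9:78104935-78116974_F had 16.38, 14.95, 15.07 and 14.73, with log2 ratios of 1.43 and 0.33. AAI-treated females were the highest array for both.

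The ratios of these adjacent probes lay far apart although their windows touch, and a further probe of the first range went the other way, with 6.62, 7.40, 6.39 and 5.95 and log2 ratios of -0.77 and 0.44. Genes of the cluster, which encode enzymes that conjugate glutathione to electrophiles, moved with the first pair. In females the log2 ratio was 4.31 for the probe of Gm8074, with 11.36, 7.04, 8.85 and 8.19, and 2.11 for Gm10639, 1.68 for Gsta2 and 1.05 for Gsta4. In males these 4 ratios were 0.66, 0.43, 0.64 and 0.40. Since the locus probes share 20 and 23 bases with the probe of Gm8074, a separate noncoding transcript and the transcripts of the cluster cannot be told apart here.

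Across the loci, 40 probes shared 20 bases or more with the probe of a named transcript, in the same orientation of the letters, at whatever place or strand of the genome that probe lies. For 33 of them measured in females, the log2 ratios of the locus and of the named probe differed by 0.12 at the median and had the same sign in 81.8%, and for 30 in males by 0.19 and 86.7%. These loci are named as noncoding by the array but read letters of named transcripts.

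The locus chr1:193875525-193978800_R went in opposite directions in the sexes. Its log2 signals were 17.37, 16.03, 16.87 and 18.19, a log2 ratio of 1.33 or 2.52-fold in females and of -1.33 or 2.51-fold lower in males. In corn oil-treated males it was 4.47-fold above corn oil-treated females, and AAI-treated animals of both sexes lay between them. The second probe of this range and strand had 5.12, 5.93, 5.86 and 5.35, with log2 ratios of -0.81 and 0.51, and the forward strand had -0.47 and -0.13.

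The glutathione S-transferase genes of the pi class, which lie on another chromosome and were looked at after these values had been seen, had the same signs. Gstp1 had 15.13, 13.58, 14.57 and 16.04, with log2 ratios of 1.55 in females and -1.47 in males, and Gstp2 had 17.80, 16.86, 17.56 and 18.07, with 0.94 and -0.51. Whether the printed letters of the locus probe occur in a Gstp transcript was not tested. The values of this probe can therefore not be assigned to a noncoding transcript of chromosome 1. The nearest named gene on the array, Rcor3, a corepressor gene whose probe lies inside the range and on its strand, had ratios of 0.66 and 0.15.

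Other measured increases among the 10 largest in females were about 2.5-fold or less, apart from 5.19-fold at a chromosome 17 locus given below. At chr16:38043218-38088355_R the signals were 6.53, 5.24, 5.93 and 6.53, with log2 ratios of 1.28 in females and -0.60 in males, and at chr3:86827945-86886695_R they were 7.04, 5.81, 6.39 and 6.25, with 1.23 and 0.14. At chr6:52046805-52072744_F they were 5.60, 4.43, 5.38 and 4.94, with 1.18 and 0.44. Corn oil-treated females were the lowest array in these 3 loci. Among loci dim in corn oil-treated females, chr2:71205705-71226510_F had 6.44, 2.66, 2.47 and 4.68 and was at least 4.28-fold higher after AAI, and chr15:32167516-32174427_F had 5.73, 4.15, 5.30 and 5.56 and was at least 2.61-fold higher.

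In males the largest increase was at chr7:6108350-6119600_R, with log2 signals of 5.97, 6.99, 12.14 and 8.22, a log2 ratio of 3.92 or 15.11-fold in males and of -1.02 in females. AAI-treated males stood above the other 3 arrays. This probe has no mapped position, so its place in the range rests on its name alone. Another probe of this range and strand, also without a mapped position, had 6.54, 6.51, 6.71 and 5.24, with 0.03 in females and 1.48 in males. The others measured on all arrays stayed between -0.28 and 0.37 in both sexes. A further probe was seen in AAI-treated males alone, with 3.20, 2.32, 5.5 and 2.22, and was at least 2.31-fold higher there. Of these 5 probes, 3 were past 2-fold higher in males. At chr1:163528792-163529312_F the signals were 6.77, 5.99, 10.03 and 6.21, a log2 ratio of 3.82 or 14.1-fold in males and of 0.78 in females.

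On chromosome 10, some of several overlapping loci were higher in males. The forward probe of chr10:69669025-69686275_F had 5.78, 5.27, 7.72 and 5.33, with a log2 ratio of 2.39 or 5.24-fold in males and 0.51 in females. Inside it, a probe of chr10:69679644-69682458_F had 4.64, 2.76, 7.85 and 3.37, which was dim on both corn oil arrays and at least 11.83-fold higher in males. A second probe of the smaller range was marked only in AAI-treated males, with 5.35 against 3.30 in corn oil, a log2 ratio of at least 1.06. The reverse strand of chr10:69669025-69686275_R had 9.39, 9.20, 9.51 and 8.64, with 0.88 in males, a further overlapping forward locus had 6.03, 6.26, 6.64 and 6.13, with 0.51, and the nearest gene Ccdc6, on the forward strand, had 0.30.

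Among the other increases in males, log2 ratios were 2.17 at chr13:19611679-19620954_R, 2.06 at chr7:13533925-13544525_F and 1.66 at chrX:157038750-157039018_F, with 0.32, -0.12 and 0.72 in females. The fat and adrenal markers that were higher in the same pool are given above, and their part in these increases was not tested.

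Loci lower after AAI in males outnumbered the higher ones, and the largest decreases are given first. At chr8:49866197-49866841_R the log2 signals were 6.57, 8.04, 7.20 and 12.14, a decrease of 30.65-fold in males and of 2.77-fold in females. At chr10:87541696-87547421_R they were 9.50, 10.68, 9.95 and 13.23, a decrease of 9.71-fold and 2.26-fold. At chr14:22267795-22319045_F they were 10.62, 12.30, 11.56 and 14.72, a decrease of 8.92-fold and 3.20-fold. In all 3, corn oil-treated males were highest, corn oil-treated females next and both AAI-treated pools lowest.

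The same order held at chr11:76400207-76434732_R, with 8.96, 10.06, 9.32 and 12.41, and at chr8:122807653-122823000_R, with 6.34, 7.65, 6.88 and 9.89. Their decreases were 8.49-fold and 8.08-fold in males and 2.14-fold and 2.48-fold in females. Other loci were past 2-fold lower in males alone. At chrX:35825525-35877700_R the signals were 6.54, 6.09, 6.36 and 10.07, 13.06-fold lower in males against a log2 ratio of 0.45 in females, and at chr4:131734714-131741964_F they were 5.41, 6.03, 5.18 and 8.32, with log2 ratios of -3.14 and -0.62. In these, corn oil-treated males stood apart from the other 3 arrays. The difference between the sexes was not tested. Red cell markers were also lower in these males, as given above, and their part in the locus decreases was not tested.

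Several decreases were carried by one of several probes. The chromosome 14 range had a further forward probe with 16.85, 16.43, 16.70 and 16.49, with ratios of 0.42 and 0.21, and another with 0.17 and 0.40, so of the forward probes the printed one alone was past 2-fold. At chr12:76744947-76778372_R the probe had 4.08, 5.44, 4.87 and 7.54, with log2 ratios of -1.36 and -2.68. The probe of chr12:76769763-76770169_R, which shares 28 of its bases, had 5.12, 5.54, 5.14 and 5.53, with -0.42 and -0.39. The probe with the shared bases at its other end thus stayed within 1.5-fold of corn oil in both sexes.

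**Figure D3:**
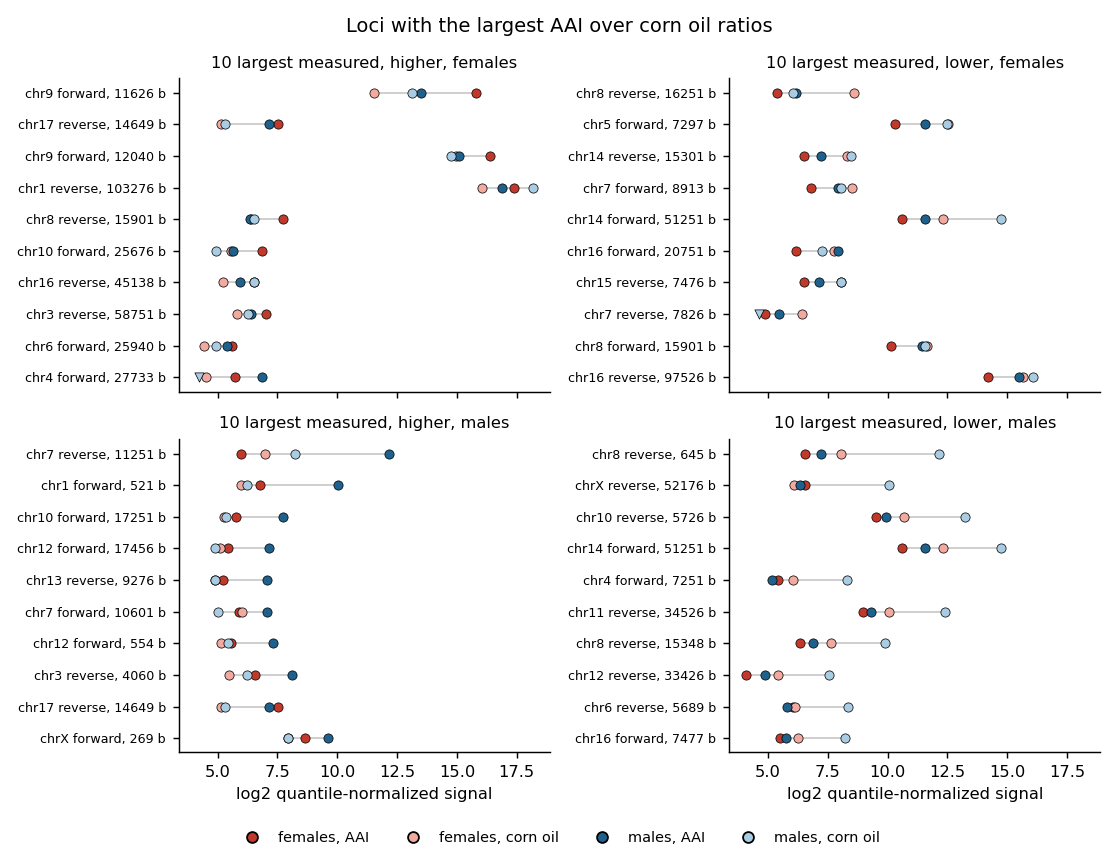
Log2 quantile-normalized signal (x axis) on the 4 arrays for the loci with the 10 largest measured increases and decreases in each sex, named by chromosome, strand and length in bases (b), with triangles for signals not well above background. Among the 10 decreases in males, corn oil-treated males are the highest array at each locus.

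In females the decreases were fewer. The largest of those measured on both arrays was at chr8:80055575-80071825_R, with 5.40, 8.59, 6.16 and 6.03, 9.13-fold lower in females with a log2 ratio of 0.13 in males. Corn oil-treated females stood above the other arrays. At chr5:35975265-35982561_F the signals were 10.32, 12.51, 11.55 and 12.50, a decrease of 4.56-fold in females and 1.93-fold in males, and at chr14:19295319-19310619_R they were 6.49, 8.31, 7.24 and 8.47, a decrease of 3.54-fold and 2.34-fold. In the latter pair both AAI-treated pools lay below both corn oil-treated pools.

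At chr7:26054813-26063725_F the signals were 6.80, 8.50, 7.94 and 8.06, with log2 ratios of -1.70 and -0.12 in the females and males, and at chr16:93121505-93142255_F they were 6.17, 7.76, 7.94 and 7.25, with -1.59 and 0.69. AAI-treated females alone were low at both, and the reverse strands of these ranges had 0.41 and 0.40 in females. The bright locus chr16:39984031-40081556_R had 14.21, 15.68, 15.51 and 16.06, with -1.47 and -0.56.

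Larger differences in females were bounds, where one array was dim. The forward probe chrX:132429992-132486347_F had 2.11, 8.44, 2.77 and 2.41 and was well above background only in corn oil-treated females, at least 24.85-fold above AAI-treated females. A probe at chrX:11671249-11671715_R, with 3.64, 7.34, 3.63 and 4.41, was at least 11.57-fold above. Signals seen on 1 array of 4 have no second measurement in these data. In males the largest such decrease was at chr12:53708656-53729799_F, with 2.11, 2.18, 2.27 and 8.02, a log2 ratio of -3.32 or lower after AAI.

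Loci past 2-fold in both sexes were mostly lower. Of 3514 members compared in both, 4 were higher in both, 15 were lower in both and 3 went in opposite directions. Together they made up 0.626% of the members, against 1.25% of all probes compared in both sexes. Of those 44068 probes, 208 passed 2-fold upward in both sexes and 281 downward in both, so shared decreases outnumbered shared increases there too. For the 25477 mRNA probes the counts were 180 upward and 125 downward, with more shared increases. Over 3231 members measured in both sexes the log2 ratios of females and males had a Pearson correlation of 0.25 and a Spearman correlation of 0.19, against 0.31 and 0.23 over all probes, across probes that are not independent.

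Of 143 members lower in males and measured in females, 103 were below corn oil there and 12 were past 2-fold. Of 52 members lower in females and measured in males, 43 were below corn oil there. Of 41 higher in males, 35 were above corn oil in females and 2 were past 2-fold, and of 28 higher in females, 18 were above corn oil in males. Over all members measured in both sexes 58.0% had the same sign, against 58.4% of all probes. The median member lay above corn oil in females, at 0.111. These counts were not made over all probes, so they are not a result about the loci.

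**Figure D4:**
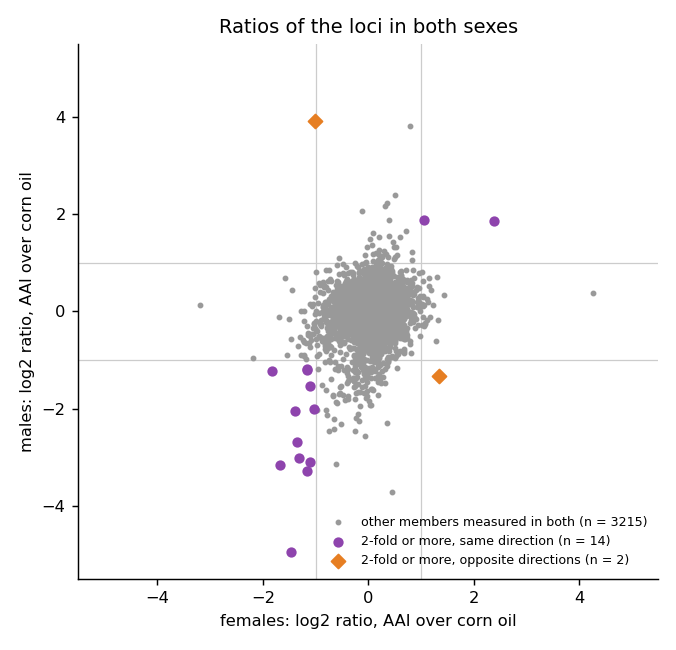
Log2 ratio of AAI over corn oil in females (x axis) and males (y axis) for the 3231 members measured in both sexes, with lines at 2-fold. The 14 members past 2-fold in the same direction are mostly in the lower left, and 2 measured members lie in opposite corners.

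Both probes of chr17:15100982-15115630_R were among the 4 increases shared by the sexes. One had 7.52, 5.15, 7.15 and 5.29, which is 5.19-fold higher in females and 3.63-fold higher in males, and the other had 6.59, 4.19, 6.45 and 4.14, at least 4.74-fold and at least 4.48-fold higher. Both AAI-treated pools lay above both corn oil-treated pools in each probe. Gm3448, a predicted gene nearby, had log2 ratios of 1.34 and 1.23, Gm3435 had 0.13 and 0.45, and an overlapping locus on the forward strand had -0.12 and -0.05.

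The other shared increases were at chr3:148884650-148888709_R, with 6.55, 5.48, 8.09 and 6.22 and log2 ratios of 1.06 and 1.87, and at chr4:11893711-11921443_F, with 5.71, 4.53, 6.84 and 4.23 and ratios of 1.18 and at least 2.55. At both, AAI-treated males had the highest signal. The shared decreases also held chr4:136856064-136875614_R, which lies beside Wnt4, a signalling ligand. It had 5.46, 6.86, 5.70 and 7.74 with log2 ratios of -1.39 and -2.04, and the Wnt4 probe had -0.18 and 0.75.

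Between the corn oil-treated pools, females over males, 3625 members were compared, of which 44 (1.21%) were at least 2-fold higher in females and 146 (4.03%) at least 2-fold lower, with 1.94% and 3.62% of all probes. Decreases, meaning signals higher in males, were at 17.11-fold for chr8:49866197-49866841_R, 15.73-fold for chrX:35825525-35877700_R and 5.88-fold for chr10:87541696-87547421_R. These loci were also named above for their ratios in males, and both comparisons rest on the same corn oil-treated male array, so the values are not independent. Among the loci higher in females were chr8:80055575-80071825_R at 5.88-fold, chr17:32035750-32056000_R at 2.67-fold, and chr17:21653676-21667959_F at 2.94-fold with 5.66, 6.30, 5.09 and 4.74.

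The strands of a range were compared in detection and in ratio. Of 832 ranges probed on both strands, 63.8% had both on 4 arrays, and in 134 ranges (16.1%) one strand was marked on 4 arrays and the other on 0. Over all locus probes 72.7% were marked on 4 arrays and 13.7% on 0, so unrelated probes would also often split in this way. Whether the strands of a range split more often than unrelated probes was not tested. Of 148 pairs overlapping by 30 bases or more, 72 were both marked on 4 arrays and 29 were marked on 4 against 0. At chr7:13533925-13544525_F the forward probe had 5.90, 6.02, 7.07 and 5.01, and the reverse probe, which reads the complement of 58 of its bases, had 2.11, 2.04, 2.04 and 2.06 and was marked on 0 arrays.

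The ratio on one strand told little of the other. Over 726 pairs measured in females, the log2 ratios had a Pearson correlation of -0.023, a Spearman correlation of 0.020 and the same sign in 55.1%. Over 674 in males these were 0.088, 0.094 and 54.0%. For comparison, different probes of the same strand gave 0.073, 0.176 and 53.8% over 212 ranges in females, and 0.105, 0.197 and 57.7% over 194 in males. The rank correlations were thus higher within a strand in both sexes, and all were weak. Pairs overlapping by 30 bases or more had a Pearson correlation of -0.255 over 81 in females and 0.049 over 74 in males.

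The pair with the largest difference in females was chr5:35975265-35982561_F, given above with a ratio of -2.19, and chr5:35975265-35982561_R, with 15.61, 14.92, 15.32 and 15.75 and a ratio of 0.69. Their printed probes share 34 bases in opposite orientation. At chr8:48476637-48492537_F the forward probe had 10.13, 11.64, 11.42 and 11.58 and the reverse strand of chr8:48476637-48492537_R had 7.73, 6.41, 6.34 and 6.52, with log2 ratios of -1.51 and 1.32 in females and of -0.16 and -0.18 in males. At the latter, AAI-treated females stood apart from the other 3 arrays, downward on the forward strand and upward on the reverse strand. In males the largest difference was at chr10:87541696-87547421_F, where the forward strand had a ratio of 0.44 against -3.28 on the reverse strand.

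**Figure D5:**
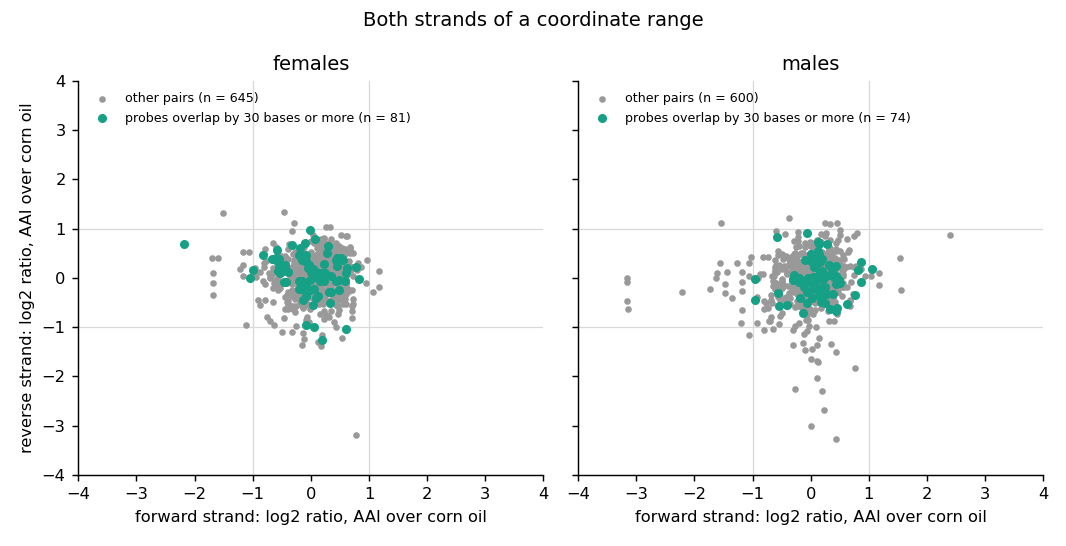
Log2 ratio of AAI over corn oil on the forward strand (x axis) and the reverse strand (y axis) of a coordinate range, 1 point per pair of probes measured on both arrays, with lines at 2-fold and pairs that overlap by 30 bases or more in green. Points spread along both axes, with few in the corners.

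The probe of a named gene nearest to a locus, within 50 kb, rarely moved with it. Over 2246 loci in females the log2 ratios of locus and neighbour had a Pearson correlation of 0.048, and over 2061 in males 0.057. Of 21 loci higher in females with such a neighbour, 2 had a neighbour that was also higher, and of 42 lower ones, 0 had a neighbour that was also lower. Those 2 were the adjacent chromosome 9 probes at the Gsta genes. Both were matched to the same Gm10639 probe, so they are not independent cases. In males the counts were 3 of 25 and 2 of 97. Over all such neighbours 1.60% were higher and 3.16% lower in females, and 3.78% and 2.57% in males. At chr10:94848446-94874121_F the locus had 1.30 in females while Socs2, an inhibitor of growth hormone signalling that lies 945 bases away on the other strand, had -1.15.

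The imprinted region of Dlk1 and Meg3 held 20 of the locus probes. Dlk1 encodes a transmembrane protein of the Notch ligand family that is made in fetal liver, and its probes had log2 ratios of 2.20 and 4.08 in males and 0.02 and 0.69 in females. The locus chr12:110653148-110653701_F, 44727 bases from a Dlk1 probe, had 5.54, 5.14, 7.31 and 5.43, with 1.88 in males and 0.40 in females, and AAI-treated males stood apart. The 13 locus probes of the region measured in males ran from -1.54 to 1.88 with a median of 0.07, so the region did not move as one. Probes of Meg3 gave 1.29, 0.99 and -0.70 in males where measured on both arrays. Muscle, fat and adrenal markers were higher in the same male pool, as given above, and their part in the ratios of this region was not tested.

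The probes that contain hairpin letters differed little between AAI and corn oil. The locus chr15:85412264-85549139_F, with letters of Mirlet7c-2, a precursor of the let-7 family, had 6.95, 6.59, 6.76 and 6.58 and log2 ratios of 0.36 in females and 0.18 in males. The locus chr8:91471819-91551119_F, with letters of Mir8110, had 10.48, 10.49, 9.98 and 10.15 and ratios of -0.01 and -0.17. A probe at chrX:50087925-50101700_R with 44 bases of the Mir363 hairpin was above background on 0 arrays.

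Named long noncoding RNA genes are given for comparison, from a list chosen with earlier results known. Of 29 genes, 26 had a probe and 23 were detected. Of 52 probes compared in females, 3 were at least 2-fold higher and 3 lower, and of 53 in males, 4 were higher and 1 lower. The H19 probes, for an imprinted fetal RNA, were more than 2-fold higher in both sexes, with 10.59, 8.30, 13.13 and 8.68 and log2 ratios of 2.29 and 4.45 for one and 1.25 and 3.8 for the other. Muscle markers were higher in both AAI-treated pools, as given above, and their part in the H19 ratios was not tested. Gas5, a host of small nucleolar RNAs, stayed between -0.42 and 0.13.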

How the data were processed

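The members and the gene lists were chosen with earlier results of these data known. Each array (Agilent, single colour, mouse build mm9, 62976 spots) was read with Feature Extraction 10.5.1.1 by the authors, and the deposited spot intensities were processed signals, background-subtracted and corrected for a multiplicative trend. The authors' table of the whole series held raw intensities, which equalled the scanner values within 1% for 100% of probes, and quantile-normalized intensities on a linear scale, used after log2 as an alternative. The array number, 1 per group, limits the precision.

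From the intensities, outlier spots were left out, spots of a probe averaged and log2 values quantile-normalized over 56495 of 56605 probes (Python 3.11.15, pandas 2.3.3, numpy 2.4.6), with normexp in limma 3.58.1 (R 4.3.3) as an alternative. Ratios were counted past 2-fold. Where 1 array was dim, the ratio was a bound against the higher of its own signal and the dimmest marked signal of any probe on that array after normalization (log2 3.81, 4.34, 4.70 and 4.29 for female AAI, female corn oil, male AAI and male corn oil). A locus was named if it was among the 10 largest measured ratios each way per comparison, the 5 largest bounds, the 10 brightest, past 2-fold in both sexes or opposite, or among the 10 strand pairs with the largest difference per sex. Other named genes were chosen after values were seen. Coordinates are those of the array files, and hairpins and promoter windows are from RefSeq. The counting was tested on simulated data.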

Additional observations from a re-analysis of the deposited data

Results flagged for a closer look

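The ratios of AAI over corn oil went past 2-fold in opposite directions in females and males for 3 of the loci, and the difference between the sexes was not tested. At chr3:93564825-93576725_F the female minus male log2 difference was -2.19, but both ratios were bounds, from signals of 3.83, 5.00, 5.31 and 3.15. At chr1:193875525-193978800_R the difference was 2.66, and a second probe of the range had the opposite signs. At chr7:6108350-6119600_R the difference was -4.93, from a probe without a mapped position. The other probes of the range measured on all arrays did not go past 2-fold in opposite directions.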

How the results depend on the processing

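All 93 ratios of named loci kept their sign under each alternative that gave a value. These ratios were named for their size on the same arrays, so the kept signs are no independent check. Of 716 alternative values, 612 stayed within the limit set for a moved value, while of the 104 that moved, 80 were under normexp. Some fell well below 2-fold, as at chr6:52046805-52072744_F in females, with log2 ratios from 0.28 to 1.34. With 75th percentile scaling, 62 members in place of 41 were higher in females. With normexp, which compresses ratios of dim spots by its added offset, 5 were higher and 18 lower in females, 18 and 83 in males, and 7 and 61 between the corn oil pools. At a threshold of 3-fold the counts were 6 and 12, 23 and 63, and 7 and 38. With the mark on both arrays, increases were 41 in males and 25 between the corn oil pools. With no filter and no bounds, increases were 91 in females, 130 in males and 92 between the corn oil pools. Shares over all probes are not given for normexp, 3-fold, the mark on both arrays or no filter. The counts under those settings are thus not a result about the loci. With neighbours within 10 kb, 1171 loci were measured in females, with 0 pairs both higher, and 1070 in males, with 1 pair both higher and 1 both lower. The remaining counts were within 1.5 times. No paired analysis was possible because each group has 1 sample. Without replicates, no difference could be set against the variation between animals.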

Other observations

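Of the coordinate-named probes, 53 lay inside the window from 250 bases before to 50 bases after the start of a RefSeq gene, of 32851 windows searched, and 47 of these were members, 25 on the strand of the gene and 24 on the opposite strand, counting a probe under both where it lay in windows of both kinds. In females 0 of them passed 2-fold, where 1.39% of all probes compared were higher and 3.27% lower. In males 3 were lower after AAI, where 4.37% of all probes compared were lower. At chr10:92798725-92811622_F, at the start of Gm17745, the log2 signals were 8.47, 8.26, 8.35 and 9.64, a ratio of -1.29. At chr2:27394711-27402186_R, opposite to Gm13421, they were 9.06, 8.94, 8.77 and 10.15, a ratio of -1.38. At chr8:10913790-10928696_R, at 3930402G23Rik, the ratio was a bound of -1.07 or lower. In each of the first pair corn oil-treated males stood above the other 3 arrays. A probe before the start of Gas5, chr1:162965001-162966376_F, had 6.21, 6.10, 6.21 and 5.93.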
